A study of Mus musculus with 2 samples.

Results

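The 10 genes described here encode fibrillin microfibrils and the elastic fibers built on them: the fibrillins Fbn1 and Fbn2, the latent TGF-β binding proteins Ltbp1, Ltbp2, Ltbp3 and Ltbp4, the microfibril-associated glycoproteins Mfap2 and Mfap5, elastin (Eln) and fibulin-5 (Fbln5). They were chosen by name as Fbn1, the gene mutated in the tight skin (TSK) mouse, and its partners, and they are 10 of the 32285 genes counted, of which 24882 had at least 1 count in the cells used. All 10 were detected in both libraries. The study asked how the cell populations of tumors differ between WT and TSK hosts. Tumors were grown under the skin of female C57BL/6 mice 6 to 8 weeks old by injection of SO cells, a mouse ovarian cancer line from the same strain. WT hosts had the normal Fbn1 gene, and TSK hosts were heterozygous for an internal duplication of Fbn1 that gives an oversized protein beside the normal one. The tumors of several mice were pooled for each genotype, and each pool gave 1 droplet library (10x Genomics, 3′ ends), so the 2 libraries carry no replicate spread and no test between genotypes was possible. The injected SO cells were the same in both hosts and do not carry the duplication. A 3′ tag counts the transcripts of the normal and the duplicated allele alike, so it gives the level of Fbn1 and not the presence of the mutation.

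Fibrillins assemble outside the cell into long beaded microfibrils that give connective tissue its elastic strength. The latent TGF-β binding proteins bind fibrillin, and all but Ltbp2 can hold the growth factor TGF-β in an inactive store in the matrix. The glycoproteins Mfap2 (MAGP-1) and Mfap5 (MAGP-2) decorate the microfibril, and elastin is laid down on it with the help of fibulin-5. In skin and in tumor stroma these proteins come mainly from fibroblasts, while smooth muscle and endothelium add to the elastic fibers of vessels.

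Every value is a count of UMIs, which are molecular tags that count each captured RNA molecule once. Levels are UMIs of a gene per 1000000 UMIs of a cell group (CPM). Intervals are exact 95% Poisson intervals for levels, exact conditional intervals for ratios and exact binomial intervals for shares, and they cover counting error only. Cells with at least 200 genes, at least 500 UMIs and at most 10% mitochondrial UMIs were used, 1442 in the WT library (median 7658.5 UMIs) and 2961 in the TSK library (median 7302). The libraries shared 263 barcodes, and the 251 WT and 255 TSK cells with such a barcode that met the limits were left out. Each remaining cell was given a lineage from its own counts of marker genes, none of which is one of the 10. The fibroblast-like cells were 134 WT and 212 TSK cells, the mural-like cells 14 and 31, the endothelial-like cells 62 and 57, the cancer-like cells 100 and 1166, the macrophage-like cells 197 and 355, and the T and NK-like cells 473 and 297. A further 24.6% of the cells stayed unassigned. The 8 fibroblast markers were each found in 73.4% to 99.4% of fibroblast-like cells, and the 8 endothelial markers in 81.5% to 95.0% of endothelial-like cells. Among the cancer-like cells Cdkn2a was found in 94.2% and Lgals7 in 91.7%, but Krt8 in 3.87% and Krt7 in 0.395%, so these cells are called cancer-like by Cdkn2a, Lgals7 and Hmga2 and not by the full keratin list. Depth differed with genotype in the stroma, with a median of 23792 UMIs in WT and 10990.5 in TSK fibroblast-like cells.

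In the mouse genome (GRCm38, GENCODE M21 annotation) the genes lie on 9 chromosomes. Fbn1 spans chr2:125300594-125507993 on the minus strand and Fbn2 chr18:58008623-58210487, also on the minus strand. Ltbp1 lies at chr17:75005568-75392512 (plus), Ltbp2 at chr12:84783212-84876532 (minus), Ltbp3 at chr19:5740904-5758532 (plus) and Ltbp4 at chr7:27305136-27337692 (minus). Mfap2 lies at chr4:141010418-141015984 (plus), Mfap5 at chr6:122505845-122529290 (plus), Eln at chr5:134702593-134747323 (minus) and Fbln5 at chr12:101746565-101819055 (minus). No member overlaps another annotated gene on its own strand. Fbn1, Ltbp2 and Eln each overlap a gene on the other strand (Gm9913, D030025P21Rik and Gm30003), and whether the counting used the strand is not given in the sources used here, so reads of these pairs cannot be told apart.

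Fbn1 was above all a fibroblast transcript. Its level over both libraries was 1673 CPM in fibroblast-like cells (interval 1640 to 1708), 552 in mural-like cells (495 to 615), 63.0 among cancer-like cells (60.5 to 65.6) and 23.4 in endothelial-like cells (16.6 to 32.2). T and NK-like cells, which are not a known source of microfibrils and serve here as a measure of free RNA, had 2.46 CPM, and macrophage-like cells had 2.54 CPM with an overlapping interval. In mural-like cells the 8 fibroblast markers (5 found in each library) summed to 8765 CPM in WT and 5590 in TSK, more than the 5043 and 4245 CPM of the 8 mural markers, and their part in the mural-like Fbn1 level was not tested. Fibroblast-like cells held 8.92% of all UMIs and 69.1% of the Fbn1 UMIs (68.3% to 69.9%), where the WT library alone gave 79.2% and TSK 61.1%. The second fibrillin had another distribution. Fbn2, the fibrillin best known from developing tissue, reached 197 CPM among cancer-like cells (192 to 201) and 143 CPM in fibroblast-like cells (134 to 154), against 2.90 CPM in T and NK-like cells. Cancer-like cells held 60.7% of all UMIs and 86.1% of the Fbn2 UMIs (85.4% to 86.9%). The libraries differed in this, since Fbn2 was higher in cancer-like than in fibroblast-like cells in TSK (206 against 158 CPM) and lower in WT (100.1 against 132 CPM), and cancer-like cells were far more numerous in TSK. There were 0.0860 Fbn2 UMIs per Fbn1 UMI in WT fibroblast-like cells and 0.0853 in TSK fibroblast-like cells. These depend on the cells taken, since with at most 10000 UMIs per cell Fbn1 was higher in TSK by 0.52 on the log2 scale while Fbn2 was at -0.51. That limit gave only 23 WT and 94 TSK fibroblast-like cells, with 149 and 1230 UMIs of Fbn1. In cancer-like cells the ratio was 0.779 in WT and 3.63 in TSK tumors.

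The latent TGF-β binding proteins fell into distinct patterns. Ltbp2, the member that does not bind latent TGF-β, was almost absent outside fibroblast-like cells: it had 122 CPM there, 1.55 CPM among cancer-like cells and 0 of 1621811 UMIs in endothelial-like cells, which allows up to 1.85 CPM. Ltbp1 had 129 CPM in fibroblast-like cells and 21.5 CPM among cancer-like cells, and no UMI in T and NK-like cells. Ltbp3 had 80.8 CPM in fibroblast-like and 30.8 CPM in cancer-like cells, and it was the only one of the 10 whose level in macrophage-like cells (12.5 CPM, 9.74 to 15.8) had an interval wholly above that in T and NK-like cells (1.34 CPM, 0.492 to 2.92). Over both libraries Ltbp4 had its highest level in endothelial-like cells, 104 CPM (89.1 to 121), followed by 67.7 CPM in fibroblast-like cells (61.1 to 74.9) and 44.7 CPM in mural-like cells (29.4 to 65.0), whose interval overlaps that of the fibroblast-like cells.

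Both microfibril-associated glycoproteins were highest in fibroblast-like cells. Mfap5 had 914 CPM in fibroblast-like cells (889 to 939), 4.31 CPM among cancer-like cells and 3.31 CPM in mural-like cells, and endothelial-like cells had no UMI of it. Fibroblast-like cells held 90.9% of its UMIs in WT and 86.8% in TSK. Mfap2 had 159 CPM in fibroblast-like cells (148 to 170), 31.4 CPM in mural-like cells (18.9 to 49.1) and 8.51 CPM in cancer-like cells. Fibroblast-like cells held 88.9% of its UMIs in WT and 50.1% in TSK, where cancer-like cells were far more numerous and held 39.7%, against 1.45% in WT. Elastin followed the fibroblasts as well, with 613 CPM in fibroblast-like cells (593 to 634), 203 CPM in mural-like cells and 18.5 CPM in endothelial-like cells (12.5 to 26.4). Of the 123 mural-like UMIs of Eln, 119 lay in 1 WT cell, and TSK mural-like cells had 8.50 CPM. Fibulin-5, which tethers elastin to microfibrils and to cell surface integrins, was highest over both libraries in endothelial-like cells at 56.7 CPM (45.7 to 69.6), with 31.6 CPM in fibroblast-like cells (27.1 to 36.7) and 0.735 CPM in cancer-like cells, no higher than the 1.12 CPM of T and NK-like cells. The place of Ltbp4 and Fbln5 in endothelium held in the WT library only. In TSK both were lower in endothelial-like than in fibroblast-like cells, at 50.3 against 82.4 CPM for Ltbp4 and 11.01 against 28.4 CPM for Fbln5. Apart from these 2 and Fbn2, the other 7 were highest in fibroblast-like cells in both libraries among the lineages plotted.

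**Figure D1:**
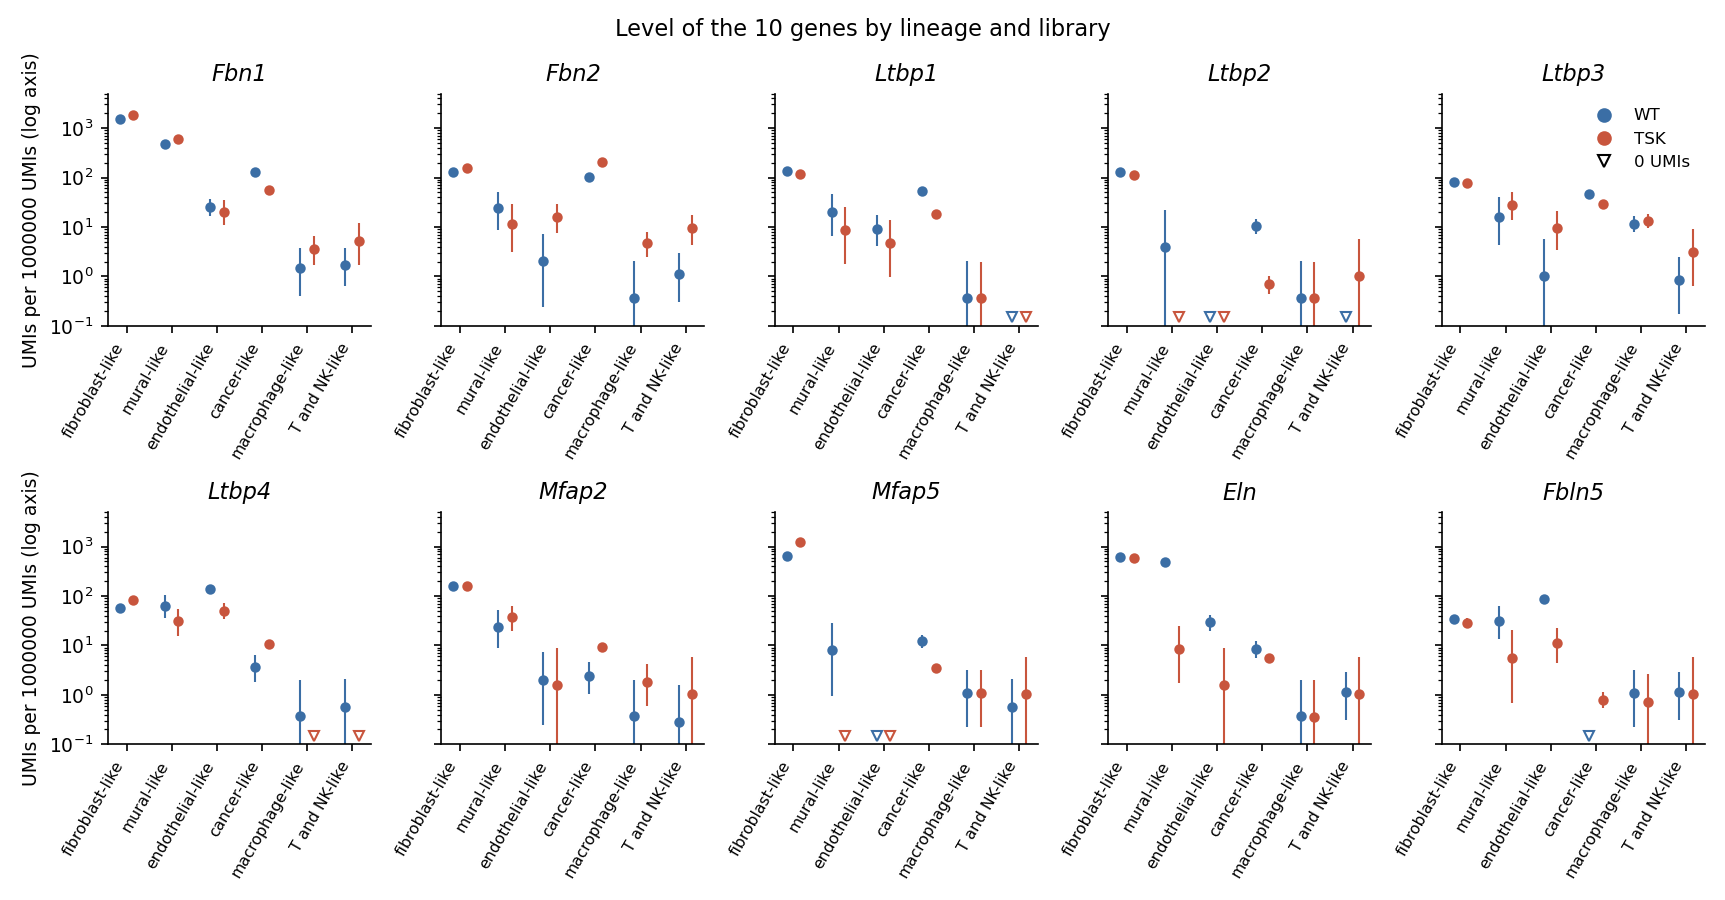
Levels of the 10 genes in 6 lineages of the WT and TSK libraries, in UMIs per 1000000 UMIs on a log axis. Points are levels, bars are exact 95% Poisson intervals, and open triangles at the bottom mark 0 UMIs. Fbn1 and Mfap5 stand highest in fibroblast-like cells, Fbn2 is above its fibroblast-like level in the cancer-like cells of TSK and below it in those of WT, and Ltbp4 and Fbln5 lie lower in TSK than in WT endothelial-like cells.

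Among the 11904 genes with at least 200 UMIs, the pattern over the 6 lineages with at least 50 cells was close to that of Fbn1 for the collagen gene Col5a1 (Pearson r = 0.9999 of log2(CPM + 10)), the lysyl oxidase family gene Loxl2, Dnajc25 and the netrin receptor gene Unc5c. Within each library the r of these 4 genes was between 0.773 (Dnajc25 in WT) and 0.997. Of the partners, Ltbp1 came closest (rank 9, r = 0.994), followed by Mfap2 (rank 63, 0.977), Eln (162, 0.956), Mfap5 (216, 0.948) and Ltbp2 (246, 0.945). Ltbp3, Fbn2, Ltbp4 and Fbln5 ranked from 469 to 1949. These are descriptions over 6 points that share the 2 libraries.

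The first question between genotypes was whether fibroblasts of TSK hosts had more of the mutated gene and its partners. In fibroblast-like cells Fbn1 had 1532 CPM in the WT library (4743 UMIs, interval 1489 to 1577) and 1848 CPM in the TSK library (4619 UMIs, 1795 to 1902), which is 0.27 higher in TSK on the log2 scale (0.21 to 0.33). Ratios below are log2 values of the TSK level over the WT level. Mfap5 had 647 CPM in WT (619 to 676) and 1244 CPM in TSK (1201 to 1289), a log2 ratio of 0.94 (0.86 to 1.02), the largest difference of the 10. Ltbp4 had 55.9 CPM in WT and 82.4 CPM in TSK, a log2 ratio of 0.56 (0.26 to 0.86). In all 3 genes the intervals of the libraries did not overlap. The median over all 8274 genes with at least 50 UMIs in these cells was itself 0.25 on the log2 scale, so relative to the median gene Fbn1 was 0.02 and Mfap5 0.69 higher.

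The remaining fibroblast transcripts differed less. Fbn2 had 132 CPM in WT and 158 CPM in TSK (log2 ratio 0.26, interval 0.05 to 0.46), close to the median gene. Mfap2 was level at 158 and 159 CPM (0.01, -0.19 to 0.20). Ltbp3 had 82.1 and 79.2 CPM (-0.05, -0.33 to 0.22), Ltbp1 138 and 118 CPM (-0.22), Ltbp2 131 and 112 CPM (-0.22, from -1.22 to 1.63 over the alternative settings), Eln 628 and 595 CPM (-0.08, -0.17 to 0.02) and Fbln5 34.2 and 28.4 CPM (-0.27, -0.72 to 0.18). Of the 10 members, each with at least 50 UMIs, 0 were 2-fold or more higher and 0 were 2-fold or more lower in the TSK library. Over all genes 5.89% were 2-fold or more higher and 2.34% lower. The median of the 10 was -0.02 against 0.25 for all genes, and 4 of the 10 (Fbn1, Fbn2, Ltbp4 and Mfap5) lay above that median. The count of 0 depends on the cells taken. It was 2 (Mfap5 and Ltbp4) with the study's upper limit of 10000 UMIs per cell, which gave 23 WT and 94 TSK cells. It was 3 (Mfap5, Eln and Ltbp2) in cells of 5000 to 25000 UMIs, a range chosen after seeing the data. In that range, where the depths of the libraries are closer, the log2 ratio was 0.44 for Fbn1 and 1.12 for Mfap5. No share of all genes past 2-fold is given for these 2 settings, so the counts of 2 and 3 have no background to be set against.

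The share of fibroblast-like cells in which a gene was found gave the same order for Mfap5. After each cell was thinned to 1000 UMIs, which left out 6 WT and 3 TSK cells, Mfap5 was found in 42.2% of WT cells (33.5% to 51.2%) and 62.2% of TSK cells (55.3% to 68.8%), and in 0 of 473 WT and 0 of 289 TSK T and NK-like cells. Before thinning the shares were 87.3% and 91.0%. Fbn1 was found in 71.9% (63.2% to 79.5%) and 73.2% (66.7% to 79.1%) of thinned cells, with 0.211% and 1.04% of T and NK-like cells. A thinned fibroblast-like cell held on average 1.87 of the 10 transcripts in WT and 2.26 in TSK, and 28.1% and 39.7% of cells held 3 or more. T and NK-like cells held 0.00846 and 0.0277 on average. Within fibroblast-like cells the 8 endothelial markers, of which 7 were found in WT and 8 in TSK, summed to 344 CPM in WT and 175 CPM in TSK, and each of the other 9 foreign marker lists to at most 289 CPM. Their part in the result was not tested.

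The UMIs of Fbn1 and Mfap5 were spread over many cells, while those of elastin were not. Fbn1 was found in 129 of 134 WT and 208 of 212 TSK fibroblast-like cells, and 50% of its UMIs lay in 30 WT and 49 TSK cells. For Mfap5 these were 24 and 42 cells. For Eln a single WT cell held 988 of the 1943 UMIs (50.8%), and the next held 244. In the TSK library the highest cell held 142 of 1488 UMIs (9.54%), and 8 cells held 50%. The WT cell with 988 Eln UMIs had 41070 UMIs in all, with 92 of Fbn1, 38 of Mfap5 and 1140 of Col1a1, and no UMI of the mural genes Myh11 and Rgs5. Without the highest cell of each library the log2 ratio of Eln was 0.79 in place of -0.08, so the nearly equal Eln levels of the 2 libraries rest on 1 WT cell.

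**Figure D2:**
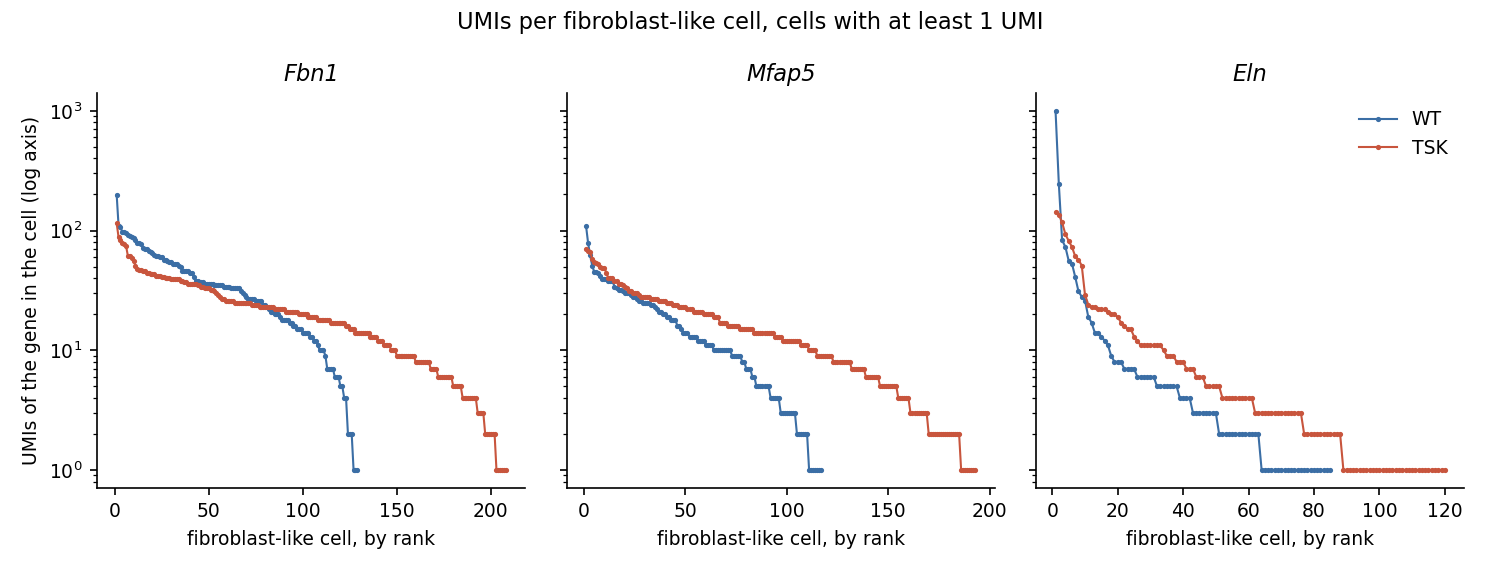
UMIs of Fbn1, Mfap5 and Eln in each fibroblast-like cell with at least 1 UMI of the gene, with the cells ranked on the x axis and UMIs on a log y axis. The curves of Fbn1 and Mfap5 fall slowly, whereas the Eln curve of the WT library starts at 988 UMIs and drops to 244 at the next cell.

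Fibroblasts were next divided by Clec3b, Pi16 and Cd34, genes of the adventitial and universal fibroblasts found around vessels and in skin. At least 1 UMI of these was found in 122 WT and 177 TSK cells, and none in 12 WT and 35 TSK cells. The cells without had fewer UMIs (medians of 3646 against 24690 in WT and 9011 against 10995 in TSK), so depth enters this division. Of the genes of matrix fibroblasts, Postn was higher in the cells without, at 5988 against 1654 CPM in WT and 2849 against 1695 CPM in TSK, and so were Col8a1 (1164 against 313 and 889 against 556 CPM) and Lrrc15 (245 against 27.6 and 415 against 63.2 CPM). Cthrc1 was lower in the cells without in WT (18.4 against 108 CPM) and at 244 against 219 CPM in TSK, and Col11a1 was at 0 against 18.8 and 7.04 against 7.72 CPM. For 4 partners the 2 kinds of cell differed by more than the genotypes did over all fibroblast-like cells. Ltbp1 was higher in the cells with these genes by a log2 ratio of 2.23 in WT (0.99 to 3.86) and 1.67 in TSK (0.98 to 2.44), and Ltbp4 by 1.66 (0.09 to 3.95) and 2.17 (1.22 to 3.32). The values were 1.80 and 1.33 for Ltbp3 and 0.92 and 0.88 for Mfap2. In both libraries the intervals of these 4 genes lay above 0. In WT, the cells without held only 5 UMIs of Ltbp1 (1 cell), 4 of Ltbp3 (2 cells) and 3 of Ltbp4 (2 cells). WT Mfap2 had 14 UMIs there, in 5 cells, and the TSK cells without held 18 UMIs of Ltbp1 in 3 cells. Eln was at 1.37 in WT and 0.74 in TSK, but in WT 1 cell held 988 of its 1902 UMIs in the cells with, and 1 cell held all 41 in the cells without. Ltbp2 had another order: it was at 131 CPM in the cells with and 123 CPM in the cells without in WT (0.10, -0.55 to 0.82), and at 84.4 and 246 CPM in TSK (-1.55, -1.90 to -1.18). The cells without in WT are only 12 and their Ltbp2 count is 20, and the difference between the libraries was not tested.

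Within the cells with a UMI of Clec3b, Pi16 or Cd34, Fbn1 had 1540 CPM in WT and 2017 CPM in TSK (log2 ratio 0.39, 0.33 to 0.45), and Mfap5 had 636 and 1284 CPM (1.01, 0.93 to 1.10). Within the cells without, Fbn1 had 1397 CPM in WT and 1025 CPM in TSK (-0.45, -0.68 to -0.21) and Mfap5 858 and 1049 CPM (0.29, 0.01 to 0.57). Fbn1 was thus higher in TSK in the larger subset and lower in the smaller one, and Mfap5 was higher in both. The smaller subset has only 12 WT cells, and Fbn1 was found in 7 of them. Ltbp2 was at a log2 ratio of -0.63 (-0.90 to -0.37) in the cells with and 1.01 (0.31 to 1.78) in the cells without. With the cut at 2 UMIs of these genes, the smaller subset had 21 WT and 42 TSK cells. There Fbn1 was at -0.22 (-0.42 to -0.03), Mfap5 at 0.67 (0.43 to 0.92) and Ltbp2 at 0.58 (0.08 to 1.11).

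**Figure D3:**
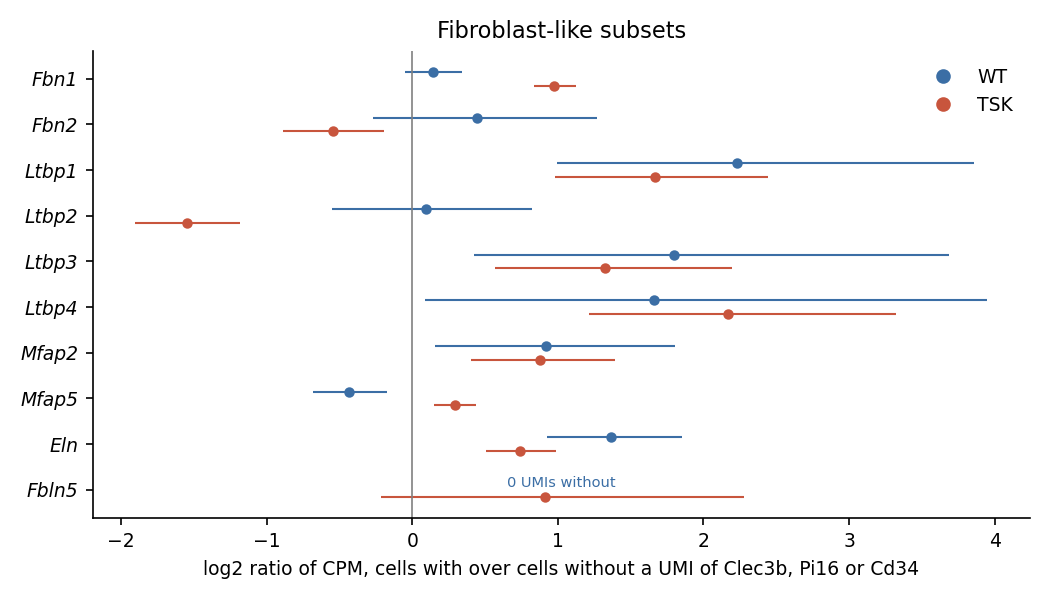
Log2 ratio of the level in fibroblast-like cells with a UMI of Clec3b, Pi16 or Cd34 over that in cells without, for each gene and library, with exact 95% intervals. Fbln5 had 0 UMIs in the WT cells without. Ltbp1, Ltbp3, Ltbp4, Mfap2 and Eln lie to the right of 0 in both libraries, where the WT point of Eln rests on 1 cell of each kind, and Ltbp2 lies at -1.55 in TSK and near 0 in WT. The WT points of Ltbp1, Ltbp3 and Ltbp4 rest on 5, 4 and 3 UMIs in the cells without.

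A list of 23 other genes of microfibril and elastic fiber assembly gave the surrounding of the partners in fibroblast-like cells. Of the 21 with at least 50 UMIs, 2 were 2-fold or more higher in TSK and 0 lower, against 5.89% and 2.34% of all genes. Adamts6, a secreted metalloprotease of the ADAMTS family, had 28.1 CPM in WT and 81.2 CPM in TSK (1.53, 1.16 to 1.91). Tgfb2, the gene of a TGF-β ligand, had 71.7 and 168 CPM (1.22, 0.99 to 1.47). The 3 genes of the list with the most UMIs were Fn1, fibronectin, at 2247 and 3317 CPM (0.56), Fbln2, fibulin-2, at 1063 and 1747 CPM (0.72), and Lox, the enzyme that crosslinks elastin and collagen, at 899 and 1379 CPM (0.62). The median of the list was 0.28 against 0.25 for all genes.

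In endothelial-like cells Ltbp4 and Fbln5 were lower in the TSK library. Ltbp4 had 139 CPM in WT (137 UMIs in 37 of 62 cells, interval 117 to 164) and 50.3 CPM in TSK (32 UMIs in 16 of 57 cells, 34.4 to 71.1), a log2 ratio of -1.46 (-2.07 to -0.90). Fbln5 had 86.2 CPM in WT (85 UMIs in 28 cells, 68.9 to 107) and 11.01 CPM in TSK (7 UMIs in 3 cells, 4.43 to 22.7), a log2 ratio of -2.97 (-4.33 to -1.86). Only these 2 members had at least 50 UMIs, and both were 2-fold or more lower, where 5.71% of the 4522 genes tested were lower and 13.2% higher. Both reached that limit through their WT UMIs, where they are high, so the count of 2 adds no support to the difference. Removing cells with 2 or more markers of another lineage gave -0.57 for Ltbp4, which is less than 2-fold, and -1.85 for Fbln5. These values rest on only 34 WT and 22 TSK endothelial-like cells. Below the limit of 50 UMIs the members went both ways. Eln had 29 UMIs in 10 WT cells and 1 UMI in TSK (-4.22, -9.58 to -1.63), while Fbn2 had 2 UMIs in WT and 10 in TSK (2.96, 0.73 to 6.19) and Ltbp3 had 1 and 6 (3.22, 0.18 to 8.74). After thinning to 1000 UMIs, Ltbp4 was found in 13 of 62 WT cells (20.97%) and in 0 of 54 TSK cells, which allows a share of up to 5.56%, and Fbln5 in 7 and 1 cells. No single cell set these values, since the highest cell held 9 of the 137 WT UMIs of Ltbp4 and 14 of the 85 of Fbln5. Without the highest cell of each library the ratios were -1.63 and -3.49.

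Other endothelial genes, in lists drawn up after these values were seen, moved as well. The arterial genes Sema3g and Sox17 went from 64.9 and 107 CPM in WT to 9.44 and 36.2 CPM in TSK, while the arterial list of 7 genes summed to 352 and 340 CPM because Efnb2 and Hey1 went the other way. The capillary list of 4 genes summed to 2026 CPM in WT and 1255 CPM in TSK, with Cd36, a fatty acid transporter, at 947 and 88.1 CPM but Gpihbp1 at 682 and 958 CPM. The venous list of 4 summed to 363 and 267 CPM, with Selp at 101 and 11.01 CPM but Nr2f2 at 78.1 and 96.0 CPM. The tip cell list of 4 summed to 579 and 1152 CPM, with Esm1 at 75.0 and 466 CPM but Pgf at 112 and 53.5 CPM. The markers of fibroblasts (7 of 8 found in each library) summed to 154 CPM in WT and 510 CPM in TSK endothelial-like cells, those of mural cells to 218 and 393 CPM, those of cancer cells (5 and 6 of 10 found) to 89.2 and 373 CPM and those of neutrophils (4 and 6 of 8 found) to 12.2 and 132 CPM. The part of these cells, and of the mix of endothelial cells, in the Ltbp4 and Fbln5 values was not tested.

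The stretches before the most upstream start site of each of these 2 genes are shown because Ltbp4 and Fbln5 were lower together in the same cells. Both are RefSeq promoter windows (GRCm38.p6, minus strand, written 5′ to 3′), cut to the bases before the start site and outside every GENCODE exon. RefSeq windows were matched for 7 of the 10 members, and Fbn2, Mfap5 and Eln had none. Ltbp4 had 3 windows and Fbln5 2, and those at the other start sites were not searched. Capitals mark matches on either strand to the GC box GGGCGG and the ETS core AGGAAG. The Ltbp4 stretch is chr7:27337693-27337862 (170 bases) and the Fbln5 stretch chr12:101819120-101819369 (250 bases).
Ltbp4: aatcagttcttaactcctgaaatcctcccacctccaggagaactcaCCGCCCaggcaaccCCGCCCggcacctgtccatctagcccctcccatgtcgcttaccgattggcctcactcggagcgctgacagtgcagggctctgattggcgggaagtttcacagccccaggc
Fbln5: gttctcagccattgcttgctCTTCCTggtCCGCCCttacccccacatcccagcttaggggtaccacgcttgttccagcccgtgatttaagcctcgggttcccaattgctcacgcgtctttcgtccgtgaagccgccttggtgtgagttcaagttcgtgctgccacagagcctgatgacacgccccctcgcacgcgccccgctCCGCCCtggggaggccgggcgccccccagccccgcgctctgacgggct
Each stretch held 2 GC boxes. At least 1 GC box was held by 19.5% of all 32851 windows at the length of the Ltbp4 stretch and by 32.7% at that of Fbln5. The Fbln5 stretch also held 1 ETS core, where 29.5% of windows of that length hold at least 1, and the Ltbp4 stretch held none, where 20.5% hold at least 1. The TATA box TATAAA and the AP-1 motif TGANTCA were found in neither. No searched motif overlapped another in these stretches.

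Mural-like cells were only 14 in WT and 31 in TSK. Fbn1 had 477 CPM in WT (120 UMIs) and 606 CPM in TSK (214 UMIs), a log2 ratio of 0.34 (0.02 to 0.68), against a median of 0.24 over 2013 genes. Of the 2 members with at least 50 UMIs, Eln was 2-fold or more lower in TSK, where 5.56% of genes were lower and 8.49% higher. It had 120 UMIs in WT and 3 in TSK, so it reached the limit of 50 through the WT library, where 1 cell held 119 of the 120. That cell had 112 UMIs of Myh11, a smooth muscle myosin, and 187 of Rgs5, a pericyte marker. Ltbp4 had 16 UMIs in WT and 11 in TSK, and Mfap5 2 and 0.

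Cancer-like cells are taken to come from the injected line and so to carry the same Fbn1 alleles in both hosts, and their fibrillins differed in opposite directions. Fbn2 had 100.1 CPM in the WT library (335 UMIs, interval 89.6 to 111) and 206 CPM in TSK (7154 UMIs, 201 to 211), a log2 ratio of 1.04 (0.88 to 1.20). Fbn1 had 128 CPM in WT (430 UMIs, 117 to 141) and 56.7 CPM in TSK (1970 UMIs, 54.2 to 59.3), a log2 ratio of -1.18 (-1.33 to -1.03). Of the 9 members with at least 50 UMIs, 3 were 2-fold or more higher in TSK (Fbn2, Ltbp4 and Mfap2) and 4 were lower (Fbn1, Ltbp1, Ltbp2 and Mfap5), where 9.21% of the 12894 genes tested were higher and 7.62% lower. Fbln5 had 28 UMIs in TSK (0.806 CPM) and 0 in WT, which allows up to 0.896 CPM, so no fold is given. The call of Fbn2 depends on the cells taken, since its log2 ratio was 0.63 with shared barcodes kept, 0.86 with up to 20% mitochondrial UMIs, 0.92 relative to the median gene and 3.85 with at most 10000 UMIs per cell. The last of these rests on only 22 WT and 243 TSK cells.

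Of the members that were higher, Ltbp4 and Mfap2 had few WT UMIs and reached the limit of 50 through the TSK library. Ltbp4 had 3.58 CPM in WT (12 UMIs) and 10.7 CPM in TSK (1.57, 0.75 to 2.54), and Mfap2 had 2.39 (8 UMIs) and 9.10 CPM (1.93, 0.93 to 3.15). Of the lower ones, Ltbp1 had 52.6 and 18.5 CPM (-1.51, -1.75 to -1.26). Over the alternative settings its log2 ratio ranged from -2.045 to -0.252, so its call depends on the cells taken as well. Ltbp2 had 10.5 and 0.691 CPM, but 1 WT cell held 20 of its 35 UMIs. Mfap5 had 12.2 and 3.54 CPM (-1.79), but 1 WT cell held 28 of its 41 UMIs, and the log2 ratio was -0.52 without the highest cell of each library. In the 84 WT and 990 TSK cancer-like cells with at least 2 UMIs of Lgals7, which was a choice made after seeing the data, the ratio of Mfap5 turned to 2.32, while Fbn1 stayed at -1.11 and Fbn2 at 1.18. That Mfap5 ratio rests on 2 WT and 104 TSK UMIs (0.43 to 5.39), where Fbn1 had 364 WT UMIs and Fbn2 265. The fibroblast markers summed to 718 CPM in WT and 491 CPM in TSK cancer-like cells, and their part in the Fbn1, Ltbp1, Ltbp2 and Mfap5 values was not tested. In cells of 5000 to 25000 UMIs the ratio of Fbn1 was -0.42.

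**Figure D4:**
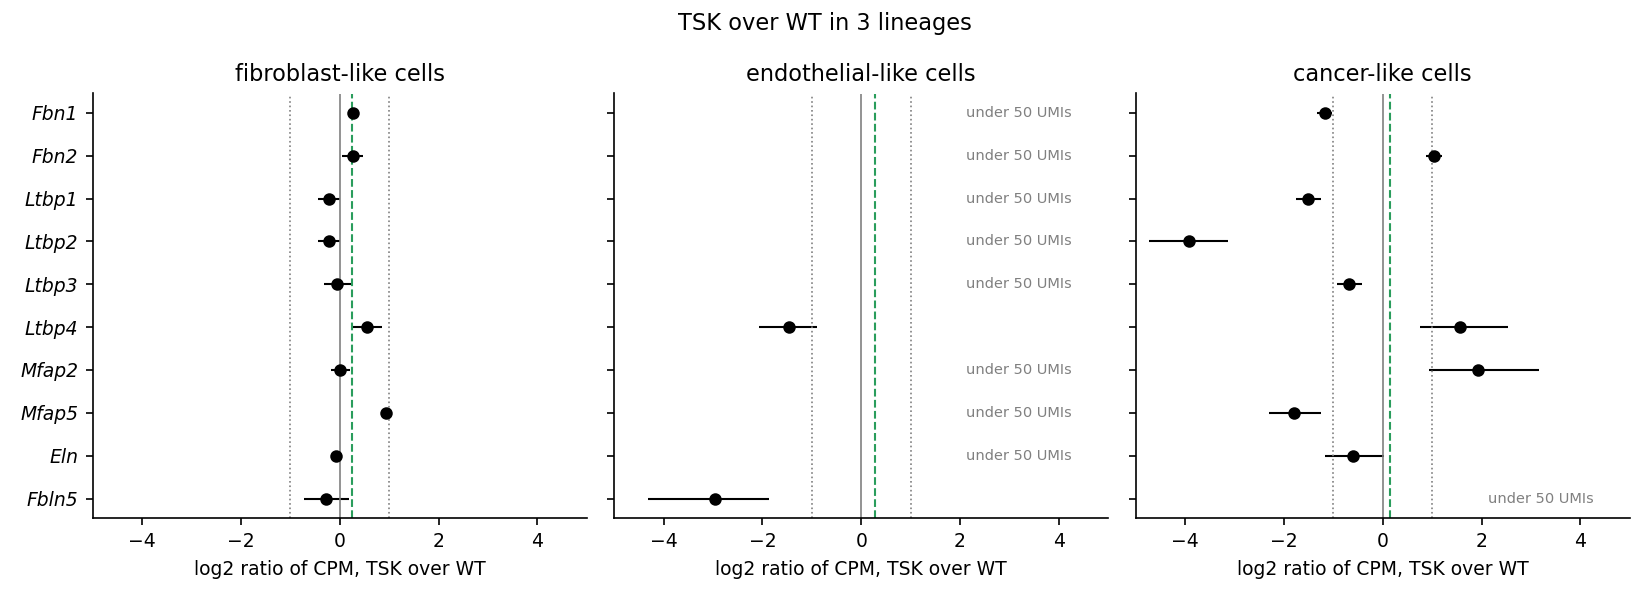
Log2 ratio of the level in TSK over that in WT for the 10 genes in fibroblast-like, endothelial-like and cancer-like cells, with exact 95% intervals. Dotted lines mark 2-fold, the dashed line is the median of all genes with at least 50 UMIs, and genes with fewer UMIs have no point. In fibroblast-like cells all 10 points lie within 2-fold, with Mfap5 nearest the line at 0.94, whereas Ltbp4 and Fbln5 lie beyond it in endothelial-like cells and 7 members in cancer-like cells.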

How the data were processed

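Per the file headers, the authors deposited unnormalized UMI counts, made with Cell Ranger 7.1.0, for every gene in every barcode (the labels name 7.1.1 and the mm10 genome). The annotation and whether intronic reads and strand were used are not given in the sources used here. Of the gene identifiers, 99.8% (32235) were in GENCODE M21. The WT library held 21225411 UMIs in 2332 barcodes and the TSK library 48296765 UMIs in 4436 barcodes. Groups came from the genotype labels, with 1 library each, so counting intervals replaced tests and p-values, and wide intervals mark genes with few UMIs.

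Lineages were set for each cell from 11 marker lists. Cells with at least 40% of a list and a lead of 0.3 over the other lists gave the median marker share of that lineage. Every cell's marker share was divided by it, and the cell took the lineage with the highest score if that was at least 0.2, the second was at most 0.5 of it, and at least 2 markers with 3 UMIs in all were present. Doublets were left in, and no caller was run. Levels, shares and ratios were computed with Python 3.11.15, numpy 2.4.6, scipy 1.17.1 and pandas 2.3.3, figures with matplotlib 3.10.9. A count of 0 was taken to allow 3 counts. Ratios past 2-fold were counted only for a gene whose UMIs in the lineage reached 50 over both libraries. On simulated data the intervals held the true ratio for 95.7% of 8274 genes at the fibroblast-like depth, 96.3% of 4522 at the endothelial-like and 96.1% of 12894 at the cancer-like depth. The simulated counts followed the Poisson model that the intervals assume, so this coverage checks the computation only. It does not cover UMIs that lie together in single cells, such as the 988 Eln UMIs of 1 WT fibroblast-like cell. The alternatives were upper limits on UMIs and genes, shared barcodes kept, up to 20% mitochondrial UMIs, lineages from Leiden clusters (leidenalg 0.10.2), removal of cells with markers of another lineage, scaling by the median gene, equal weight per cell and per subset, and other count minimums, and 4 more were added after seeing the data.

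The members and gene lists were chosen with earlier results of these data known. Named were all members, the listed assembly genes past 2-fold or among the 3 with the most UMIs, 4 of the 5 genes most like Fbn1 (the other is not reported here), and markers where a lineage is checked. Endothelial lists and single highest cells were chosen after their values were seen.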

Additional observations from a re-analysis of the deposited data

Results flagged for a closer look

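The direction of the TSK over WT difference was not the same in all lineages for 3 members, counting lineages where the member had at least 50 UMIs and an interval that leaves out 0, and none of these differences between lineages was tested. The log2 ratio of Fbn1 was 0.27 in fibroblast-like cells and 0.345 in mural-like cells but -1.18 in cancer-like cells. The median gene was itself at 0.25 in fibroblast-like, 0.24 in mural-like and 0.15 in cancer-like cells. In TSK mural-like cells 1 cell held 61 of the 214 Fbn1 UMIs. Ltbp4 was at 0.56 in fibroblast-like and 1.57 in cancer-like cells but at -1.46 in endothelial-like cells. Mfap5 was at 0.942 in fibroblast-like cells and at -1.79 in cancer-like cells, where 1 WT cell held 28 of 41 UMIs. In the cancer-like cells with at least 2 UMIs of Lgals7 it turned to 2.32 (0.43 to 5.39), on 2 WT UMIs. The direction of Mfap5 in cancer-like cells thus depends on the cells taken.

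The cells whose barcode occurs in both libraries were left out of every comparison, and in WT their levels of all 10 transcripts had intervals above the 0.966 CPM that a count of 0 allows. In TSK, where that level is 7.89 CPM, this held for Fbn1, Fbn2 and Mfap2. Of them, 151 WT and 148 TSK cells were called embryonic-like and 22 WT and 10 TSK cells cancer-like. Fbn1 stood at 174.8 CPM in WT and 44.73 CPM in TSK, Fbn2 at 136.8 and 157.9 CPM, and Mfap2 at 39.92 and 215.7 CPM. The remaining values in WT were 38.95 CPM for Ltbp1, 6.76 for Ltbp2, 37.66 for Ltbp3, 43.46 for Ltbp4, 59.23 for Mfap5, 15.13 for Eln and 37.34 for Fbln5. In TSK Ltbp3 was at 18.4 CPM (7.40 to 37.9) and Ltbp1 had 4 UMIs (2.87 to 26.9 CPM), Mfap5 and Eln were at 5.26 CPM, and Ltbp2, Ltbp4 and Fbln5 had 0 UMIs.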

How the results depend on the processing

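No paired analysis was possible because each genotype has 1 library. Except where a construction is named, the cause of a change was not tested. Counts of members past 2-fold under the alternatives have no share over all genes beside them, so they cannot be set against a background. The limit of 10000 UMIs and genes per cell gave 23 WT and 94 TSK fibroblast-like, 30 and 33 endothelial-like and 22 and 243 cancer-like cells. With at most 10000 UMIs and genes per cell, the log2 ratio of TSK over WT in fibroblast-like cells was 0.52 for Fbn1 and 1.24 for Mfap5 and turned to -0.51 for Fbn2, 2 members passed 2-fold, Fbln5 in endothelial-like cells was at -4.65, Fbn2 there turned to -0.067, Fbn2 in cancer-like cells was at 3.85, 77.2% of Fbn1 UMIs were in fibroblast-like cells and 69.7% of Fbn2 UMIs in cancer-like cells. Removing cells with 2 or more markers of another lineage, which leaves far fewer cells, gave 0.61 for Fbn1, 1.30 for Mfap5 and 4 members past 2-fold in fibroblast-like cells, -0.57 for Ltbp4 and -1.85 for Fbln5 in endothelial-like cells, 1.37 for Fbn2 in cancer-like cells, and shares of 96.2% and 55.4%. Scaling by the median gene gave 0.020 for Fbn1 and 0.69 for Mfap5. Equal weight per cell gave 0.37, 1.04 and 1 member past 2-fold, and 1.21 for Fbn2 in cancer-like cells. Keeping shared barcodes gave 0.63 for Fbn2 in cancer-like cells and a Fbn1 share of 67.2%, 20% mitochondrial UMIs gave 0.86 and 68.3%, and Leiden clusters, which did not separate mural cells, gave shares of 73.8% for Fbn1 and 88.3% for Fbn2. Of the settings chosen after seeing the data, cells of 5000 to 25000 UMIs gave 0.44 for Fbn1, 1.12 for Mfap5, 3 members past 2-fold and -2.11 for Ltbp4 in endothelial-like cells. A second lineage score of at most 0.1 of the first gave 0.78 for Mfap5 and shares of 67.5% and 84.4%. Without the highest cell Fbn2 in cancer-like cells was at 1.23, and with 2 Lgals7 UMIs Mfap5 there turned to 2.32, on 2 WT UMIs. The sign of Fbn1 and Mfap5 in fibroblast-like cells, and of Ltbp4 and Fbln5 in endothelial-like cells, did not turn under any alternative that gave a value, though Fbn1 scaled by the median gene was within counting error of 0. Eln in fibroblast-like cells ranged from -0.33 to 2.40 and Ltbp2 from -1.22 to 1.63. The endothelial-like and mural-like values rest on 119 and 45 cells.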
